A study of Mus musculus with 1012 samples.

Results

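The 10 genes described here encode inducible interleukins and related cytokines: Il6, Il10, Il12b, Il23a, Il27, Ebi3, Tslp, Lif, Osm and Csf3. They were chosen by name, as 10 of the 30452 features of a count table of single mouse cells, and all 10 had a read in at least 1 cell. The table holds 1012 cells. In scRNA-seq, whole cells were lysed. In Live-seq (296 cells), a small volume of cytoplasm was drawn out of a living cell with a hollow cantilever and sequenced by a modified Smart-seq2 protocol. A further 162 whole IBA cells were lysed after earlier Live-seq sampling or as its 0 h control.

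The RAW cells are RAW264.7, a mouse macrophage-like line. They were the clone RAW-G9, which carries mCherry under a Tnf promoter and an EGFP-Rela fusion, in all batches but 1, and wild-type RAW264.7 in Live-seq batch 5Reseq. All RAW-G9 cells, mock-treated ones included, therefore carry both reporters and stem from 1 clone. RAW_LPS cells had received lipopolysaccharide (LPS), a component of the outer membrane of bacteria. Live-seq sampling followed after 4 to 5 h, and the time for whole cells is not given in the sources used here. The methods of the study state 100 ng/ml LPS, while the sample labels hold another figure. RAW_Mock cells had received none. IBA is an immortalised line of mouse brown preadipocytes and was untreated. ASPCs, adipose stem and progenitor cells, came from the subcutaneous fat of female C57BL/6J mice aged 7 to 10 weeks, and the labels do not say which mouse a cell came from. ASPC_Pre cells were untreated, and ASPC_Post cells had received an adipogenic cocktail of dexamethasone, IBMX, insulin and rosiglitazone for 2 days. For sequential Live-seq sampling, the study marked a subset of ASPCs with a barcoded GFP reporter by lentivirus. Such cells were biopsied before the cocktail and again after it. No ASPC or IBA cell received LPS, so that cell type and LPS can be told apart only within the RAW cells.

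The labelled batches served as replicates, and nothing in the labels says whether batches were separate cultures. Whole RAW_Mock cells numbered 16 in batch 8_8, 46 in 9_1 and 95 in the batch named scRNA, with 15, 46 and 88 RAW_LPS cells and 15, 45 and 93 IBA cells in the same order. ASPC_Pre had 16 cells in 8_8 and 44 in 9_1, and ASPC_Post had 35 in 9_1. In Live-seq, RAW_LPS (50) was present in 5 batches, RAW_Mock in 4 with at least 3 cells (8, 20, 63 and 12 in 6, 7, 8_8 and 9_4), IBA (44) in 3, ASPC_Pre (61) in 2 and ASPC_Post (37) in 1. A cell had a median of 467677 counts in scRNA-seq and 506778.5 in Live-seq, with ranges of 41030 to 2671609 and 64547 to 1603790. The median number of genes per cell was lower in Live-seq (3303 to 5690 across states) than in scRNA-seq (7805 to 9220). The labelled cell types matched their markers. A list of 11 macrophage markers summed to 7867.8 to 11049.2 CPM (counts scaled to a common total of 1e6 per sum) in the RAW sums of scRNA-seq, against 8.098 to 615.3 in IBA and 37.4 to 55 in ASPCs. A list of 10 mesenchymal markers summed to 5068.9 to 17542.3 CPM in IBA cells and ASPCs against 0.3523 to 5.627 in RAW cells.

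Inducible cytokines are kept low in resting cells and are transcribed within hours once a sensor such as Toll-like receptor 4, the receptor for LPS, activates NF-kB and other factors. IL-6, LIF, oncostatin M (Osm), IL-11 and their relatives signal through receptors that contain gp130 (Il6st), and the kinases JAK and the STAT factors carry the signal to the nucleus. Other members are made of subunits from separate genes. Il27 and Ebi3 encode the subunits of IL-27, Il12b is shared by IL-12 (with Il12a) and IL-23 (with Il23a), and Ebi3 with Il12a gives IL-35. IL-10 restrains macrophages, G-CSF (Csf3) drives the formation of neutrophils, and TSLP is made by epithelial and stromal cells and acts on dendritic and other immune cells.

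Promoters of 3 members are shown because their reads came from different cells: mainly adipose cells for Il6, RAW_LPS and ASPC_Pre cells for Lif, and RAW cells alone for Ebi3. The RefSeq promoter table (GRCm38.p6) held 4 of the 10 members. Shown are the 250 bases before the transcription start on the plus strand, at chr5:30012864-30013113 for Il6, chr11:4257318-4257567 for Lif and chr17:55952373-55952622 for Ebi3. Capitals mark matches, on either strand, to GGNNTTTCC (NF-kB), TGANTCA (AP-1) and TTNCNNAA (C/EBP), where N is any base.
Il6: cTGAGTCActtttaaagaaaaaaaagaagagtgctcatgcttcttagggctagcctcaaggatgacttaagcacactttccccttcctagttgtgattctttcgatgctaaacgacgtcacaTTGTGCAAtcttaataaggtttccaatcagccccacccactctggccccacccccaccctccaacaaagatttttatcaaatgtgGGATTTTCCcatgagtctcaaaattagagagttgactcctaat
Lif: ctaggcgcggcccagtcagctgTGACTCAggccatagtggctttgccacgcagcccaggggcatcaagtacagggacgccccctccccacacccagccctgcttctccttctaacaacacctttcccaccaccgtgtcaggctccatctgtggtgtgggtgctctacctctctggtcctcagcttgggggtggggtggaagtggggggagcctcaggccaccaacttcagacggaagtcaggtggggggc
Ebi3: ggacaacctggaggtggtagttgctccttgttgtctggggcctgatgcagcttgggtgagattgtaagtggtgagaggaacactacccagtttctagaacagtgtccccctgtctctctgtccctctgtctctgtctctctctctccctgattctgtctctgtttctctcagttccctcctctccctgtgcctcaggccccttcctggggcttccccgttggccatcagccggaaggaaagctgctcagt

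The Il6 window held all 3 motifs, with AP-1 at -249 to -243, C/EBP at -128 to -121 on the minus strand and NF-kB at -43 to -35 from the start site. The Lif window held AP-1 at -228 to -222, and the windows of Ebi3 and Il12b held none of the 3. Of 32851 promoters of the same length, 4.93% held the NF-kB letters, 6.75% the AP-1 letters and 36.8% the C/EBP letters. A match is a description of the letters and not of a bound site.

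The members fell into 2 sets by the cells that held their reads. In scRNA-seq, Il27, Ebi3, Csf3, Osm, Il10, Il12b and Il23a had their reads mainly in RAW cells, while ASPCs held 1.56% (ASPC_Pre) and 2.86% (ASPC_Post) of those of Il23a. Of the scRNA-seq reads, RAW_LPS cells held 96.9% for Il27, 91.4% for Ebi3, 81.3% for Il23a and 100% for the sparse Il10 and Il12b. Il6, Tslp and Lif were found in adipose cells too. ASPC_Pre cells held 56.8% of the Il6 counts and IBA cells 34.1%, while RAW_LPS cells held 7.64%. The share of cells with at least 1 read, by state and technique, shows this division.

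**Figure D1:**
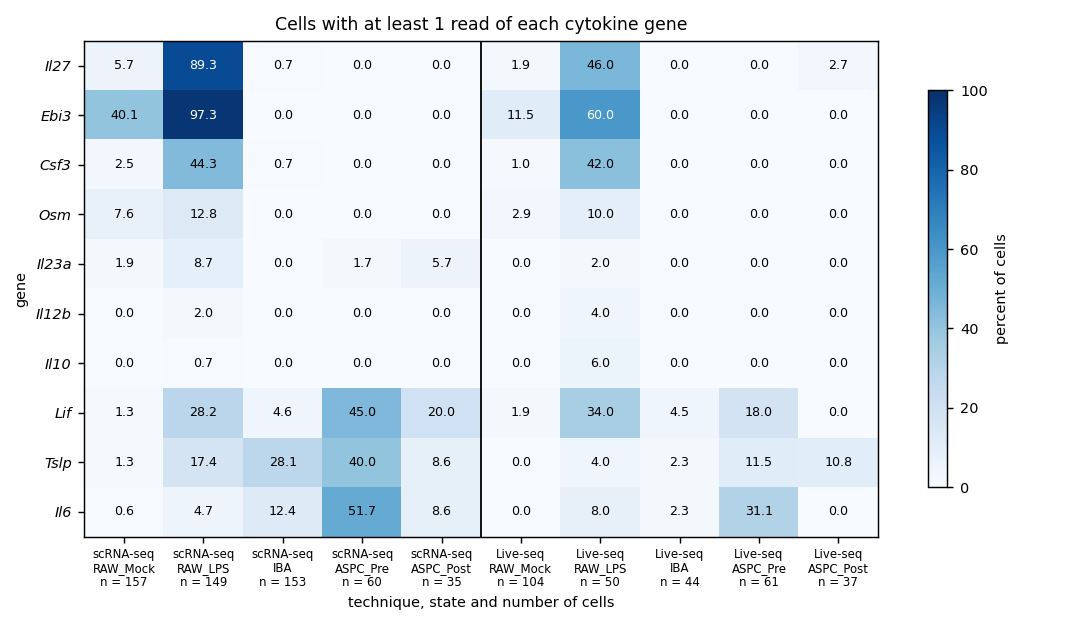
Share of cells (percent, colour and printed values) with at least 1 read of each of the 10 members (rows) in each state of scRNA-seq and Live-seq (columns). In scRNA-seq, Il27 and Ebi3 reach 89.3% and 97.3% of RAW_LPS cells, while Il6 is highest in ASPC_Pre cells at 51.7%.

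Interleukin subunits of the RAW cells came first in level. Il27 (chromosome 7, 126589010 to 126594941, minus strand, GRCm38) encodes the helical subunit of IL-27. In whole RAW_LPS cells it was at 83.8, 208.9 and 186.7 CPM in batches 8_8, 9_1 and scRNA. In RAW_Mock cells of the same batches it was at 0, 0.07828 and 11.04 CPM, so that the groups did not overlap. A read was present in 8 of 15, 41 of 46 and 84 of 88 RAW_LPS cells of these batches (89.3% in all, exact 95% interval 83.2 to 93.7), against 5.73% of RAW_Mock cells (2.65 to 10.6). Intervals of this kind cover counting error alone, since cells of a batch are not replicates and the libraries carried no molecular identifiers.

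Ebi3 (chromosome 17, 55952640 to 55957022, plus strand), the partner subunit, was at 88.88, 124.8 and 164.95 CPM in RAW_LPS and at 8.317, 4.031 and 20.19 CPM in RAW_Mock. The groups did not overlap, and Ebi3 differed from Il27 in being present without LPS: 40.1% of RAW_Mock cells had a read (32.4 to 48.2), against 97.3% of RAW_LPS cells (93.3 to 99.3). In IBA cells, which serve as the background of an unrelated cell type, no cell had an Ebi3 read, which allows a share of up to 1.96%, and 1 cell had 1 Il27 read.

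Csf3 (chromosome 11, 98701263 to 98703629, plus strand) was at 31, 70.47 and 78.58 CPM in RAW_LPS and at 0, 0 and 42.71 CPM in RAW_Mock. The batch scRNA thus overlapped with the LPS groups, and the 1466 mock counts came from 4 cells. Among RAW_LPS cells, 44.3% had a read (36.2 to 52.6). The level in cells with a read ran from 1.706 over a median of 38.74 to 1165.7 CPM, so that Csf3 was both less widespread and more uneven than Il27, whose cells had a median of 153.9 and a highest value of 830.4 CPM.

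Lif (chromosome 11, 4257557 to 4272514, plus strand) was at 1.211, 10.79 and 19.73 CPM in RAW_LPS and at 0, 0 and 7.225 CPM in RAW_Mock. The groups overlapped through the batch scRNA, where 2 of 95 mock cells held all of its reads. A Lif read was present in 28.2% of RAW_LPS cells (21.1 to 36.1). Tslp (chromosome 18, 32815383 to 32819797, plus strand) was at 0.7266, 3.745 and 5.051 CPM in RAW_LPS against 0, 0 and 0.05827 CPM in RAW_Mock, without overlap. Its reads were in 17.4% of RAW_LPS cells (11.7 to 24.5) and in 2 RAW_Mock cells, with 1 count each.

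The remaining members were sparse in RAW cells. Il6 (chromosome 5, 30013114 to 30019981, plus strand), a cytokine that primary macrophages release after LPS, had a read in 7 RAW_LPS cells (4.70%, 1.91 to 9.44) and was at 0, 0.9964 and 1.085 CPM. Il23a was at 0.2422, 3.161 and 7.458 CPM, with a read in 13 cells, and Il12b had reads in 3 cells, of which 1 cell of batch 9_1 held 98.7% of the counts. Il10 had 20 counts in 1 cell of batch 8_8. Osm was present on both sides, in 19 RAW_LPS cells (12.8%, 7.86 to 19.2) and 12 RAW_Mock cells (7.64%, 4.01 to 12.97). Its levels overlapped, at 0, 4.329 and 3.356 CPM against 1.155, 1.409 and 0.5244 CPM.

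Divided by exon length, the mean level in whole RAW_LPS cells (n = 3 batches) was 156.5 ± 65.37 (SD) CPM per kb for Il27, 109.4 ± 33 for Ebi3 and 42.47 ± 18.01 for Csf3. Il27 (82.08 to 204.6 CPM per kb) and Ebi3 overlapped, whereas Csf3 (21.94 to 55.61) stayed below the lowest Ebi3 value of 77.02. The other 7 members had means of 0.2857 (Il6) to 2.431 (Lif) CPM per kb, and each of them stayed below the lowest Csf3 value and overlapped with its neighbours in that order. The plot of RAW levels by batch shows Il27, Ebi3, Csf3, Lif, Tslp and Il6.

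**Figure D2:**
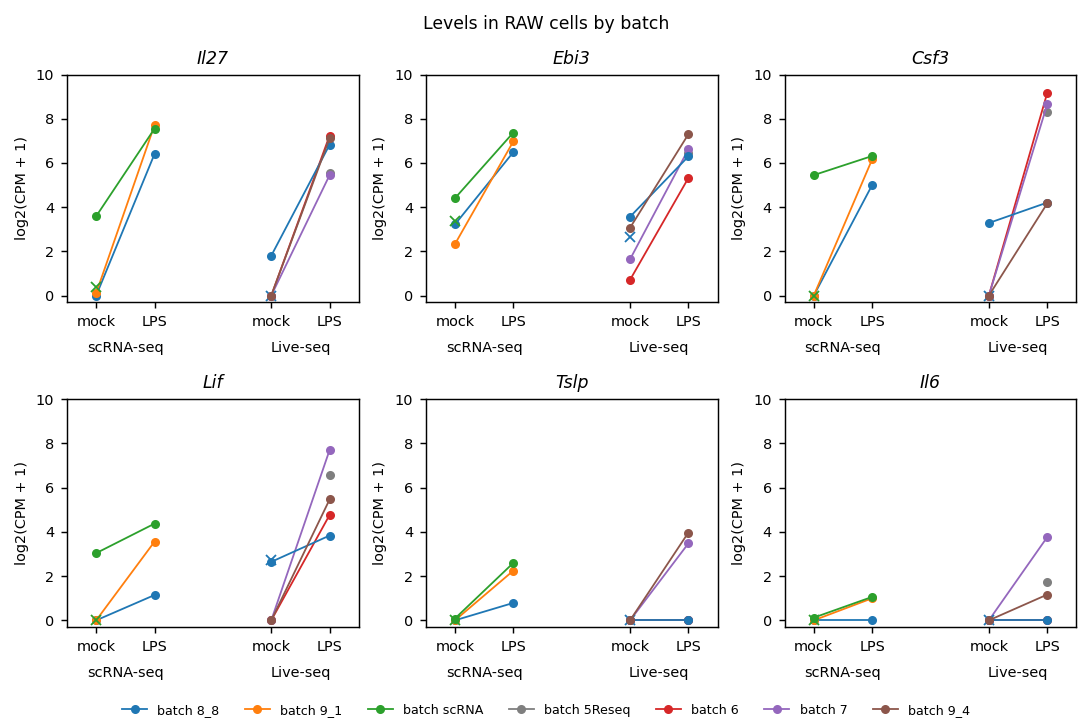
Level of 6 members (Il27, Ebi3, Csf3, Lif, Tslp and Il6), as log2(CPM + 1) of the counts summed per batch, in RAW_Mock and RAW_LPS cells of each batch, for scRNA-seq and Live-seq; crosses are mock values without the mock cells at the LPS level. For Il27, the scRNA-seq mock values lie at 0 to 11.04 CPM and the LPS values at 83.8 to 208.9 CPM.

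The question of which members respond to LPS was tested with edgeR's quasi-likelihood test on counts summed per batch, with state and batch in the model and Benjamini-Hochberg adjustment over 13562 genes. A gene was called at an adjusted p under 0.05 and a log2 fold change beyond 1, and 1.20% of the genes were. Of the called genes, 74.2% were higher (58.3% with DESeq2). The 6 response genes named below had a median log2 fold change of 4.45, and none of them was called. Of the members, 6 passed the filter on low counts. The share of cells with 2 counts had to reach 15% in a state. Il27 and Csf3 reached it in RAW_LPS alone, Ebi3 in both RAW states, Il6 in ASPC_Pre alone, Tslp in IBA and ASPC_Pre, and Lif in RAW_LPS and ASPC_Pre. A member that passed through the state where it is high entered the test because of that level. The number of members called among the 6 therefore supports nothing by itself. Il10, Il12b, Il23a and Osm did not pass. Among the 6, Ebi3 and Tslp were called, both higher after LPS.

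Ebi3 rose by a log2 fold change of 3.92 ± 0.51 (SE, edgeR, adjusted p = 0.0317), higher in 3 of 3 batches. Tslp was called at 7.52 ± 1.33 (edgeR, adjusted p = 0.0365), also higher in 3 of 3 batches. With 2 mock counts, its fitted fold change depends on the prior count, and the ratio of the pooled levels was 133.6 with a counting interval of 36.6 to 1108.6. Il27 had a log2 fold change of 7.29 ± 1.49 and missed the threshold (edgeR, adjusted p = 0.0668). Csf3 (5.67 ± 2.30, adjusted p = 0.3100), Il6 (4.31 ± 1.46, 0.2136) and Lif (3.39 ± 2.03, 0.5138) had higher means after LPS that were not called either. The calls rest on all 3 batches: for Ebi3 the adjusted p was 0.0972 without batch 8_8, 0.0698 without 9_1 and 0.1449 without scRNA, and for Tslp it was 0.0750, 0.2242 and 0.2898. Without the batch in the model, neither was called (adjusted p = 0.0800 and 0.1963). Without the filter, all 10 members were tested among 28251 genes, of which 0.977% were called. Ebi3 (edgeR, adjusted p = 0.0026), Tslp (0.0106) and Il27 (0.0070) were called there and the other 7 were not.

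In batch scRNA, 4 RAW_Mock cells stood apart. Their summed level of 6 other LPS-responsive genes (Tnf, Il1b, Cxcl2, Ccl3, Ccl4 and Ptgs2) was 14818.6 to 15631.0 CPM, at or above the median of 11508.3 CPM of the RAW_LPS cells of that batch. The next mock cell was at 3982.9 CPM. In these 4 cells lay 96.9% of the mock counts of Il27, 48.8% of those of Ebi3 and 100% of those of Csf3, Lif, Tslp and Il6. How they came to this level was not tested.

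Leaving these 4 cells out, an alternative chosen after the data had been seen, the other RAW_Mock cells had no read of Csf3, Lif, Tslp or Il6, which allows a share of up to 1.96% for each. Il27 was then in 5 mock cells with 12 counts (0.1985 CPM), and the ratio of pooled levels went from 32.05 (28.94 to 35.59) with all cells to 958.5 (548.5 to 1855.6). For Csf3 it went from 3.139 to at least 1444.9-fold and for Lif from 3.718 to at least 289.5-fold, each against a floor of 3 counts over the mock cells. Ebi3 still had a read in 59 cells (38.6%) at 7.045 CPM, and its ratio went from 10.9 to 20.06 (18.2 to 22.16).

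With those cells left out, edgeR called 2.14% of 13562 genes, with Il27, Ebi3, Csf3 and Tslp among them and Lif and Il6 not. The cells were picked for a high LPS response, so that these calls are conditioned on the outcome and are given as a description. The plot of single cells by their LPS response shows the mock cells in question.

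**Figure D3:**
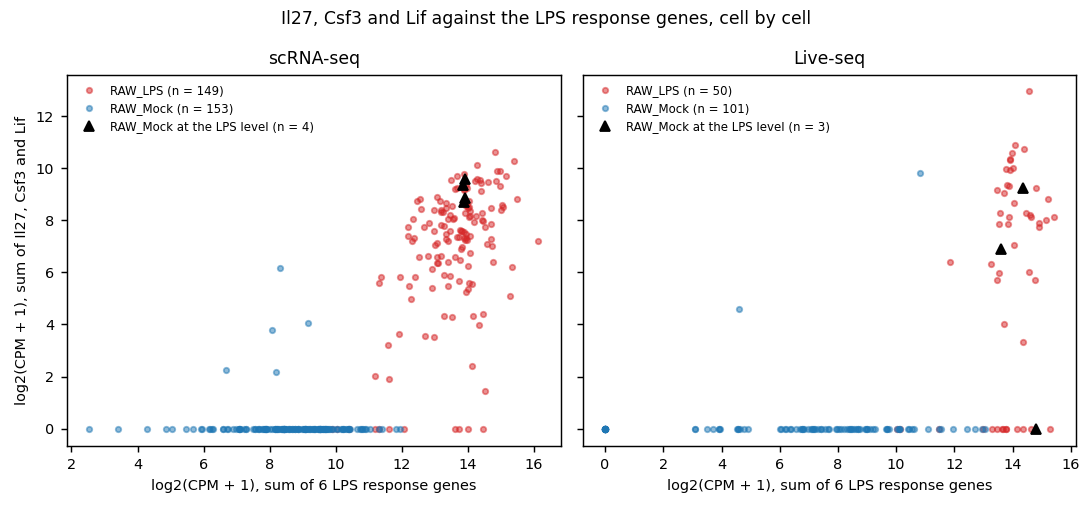
Summed level of Il27, Csf3 and Lif (vertical axis) against the summed level of 6 other LPS-responsive genes (horizontal axis) in each RAW cell, both as log2(CPM + 1), for scRNA-seq and Live-seq. The 4 scRNA-seq mock cells at 14818.6 to 15631.0 CPM on the horizontal axis lie among the RAW_LPS cells.

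Live-seq held fewer RAW_LPS cells in more batches. In the RAW_LPS biopsies of batches 5Reseq, 6, 7, 8_8 and 9_4, Il27 was at 46.42, 150.3, 42.78, 112.5 and 139 CPM, and in the mock biopsies of batches 6, 7, 8_8 and 9_4 at 0, 0, 2.489 and 0 CPM. Ebi3 was at 87.63, 39, 97.63, 77.6 and 156.8 CPM after LPS and at 0.6395, 2.12, 10.84 and 7.385 CPM in mock. Neither gene overlapped between the groups.

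Csf3 varied widely between batches, at 315.5, 572.99, 400.9, 17.48 and 16.98 CPM after LPS, with 8.74 CPM in mock batch 8_8 and 0 in the others. Lif was at 95.72, 26.24, 207.9, 13.28 and 43.28 CPM after LPS, against 5.255 CPM in mock batch 8_8 and 0 in the others. The groups did not overlap for either gene. In batches 8_8 and 9_4, the Csf3 level came from 1 cell each, of 9 and 10.

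Il6 had a read in 4 of 50 RAW_LPS biopsies (8.00%, 2.22 to 19.2) and in no mock biopsy, which allows a share of up to 2.885%. Tslp had reads in 2 of 50 RAW_LPS biopsies, Il12b in 2 and Il23a in 1, and in no mock biopsy. Osm was in 5 of 50 (10.0%, 3.33 to 21.8) after LPS, all in batches 7 and 9_4, and in 3 mock biopsies, all in batch 8_8. In that batch mock biopsies were at 18.2 CPM, and none of these counts lay in the mock cells at the LPS level.

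With edgeR, 0 of 13462 genes were called between RAW_LPS and RAW_Mock biopsies (0%), while 4.00% had an unadjusted p under 0.05. The 6 members tested had log2 fold changes of 4.65 (Ebi3) to 9.14 (Il27) and unadjusted p-values of 0.0028 to 0.0382, but an adjusted p of 1.0000 (edgeR). The median log2 fold change over all genes was -0.48 in this fit and -0.09 with DESeq2's scaling, a shift far smaller than the members' fold changes. DESeq2 called 4.76% of the genes, among them Ebi3, Lif, Csf3 and Il27, all higher, and the newer edgeR fit called 0. In Live-seq too, 3 RAW_Mock biopsies of batch 8_8 reached the LPS level of the 6 response genes, at 12474.9 to 28689.4 CPM against a median of 11409.1 CPM after LPS. They held all mock counts of Il27 and Csf3 but none of Lif or Osm. Without them, Il27 was at least 785.6-fold and Csf3 at least 3002.7-fold higher after LPS in pooled levels, against 54.14-fold and 58.94-fold with them.

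The techniques were compared by an interaction term, the LPS effect in Live-seq against that in scRNA-seq. No gene was called by edgeR (0 of 13562, 0%), 4.92% had an unadjusted p under 0.05, and DESeq2 called 2.91% of the genes with no member among them. For the members, the difference in log2 fold change ran from 0.73 ± 1.39 (Ebi3) to 4.81 ± 2.79 (Il6), with an adjusted p of 1.0000 in edgeR. With standard errors of 1.39 to 5.12, differences of several log2 units could not be detected.

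The share of cells with a read was compared at equal total counts, while the number of genes per cell still differed between the techniques. After every cell was thinned to 50000 counts, Il27 was in 81.9% of whole RAW_LPS cells (74.7 to 87.7) and 42.9% of biopsies (28.8 to 57.8), and Ebi3 in 90.6% (84.7 to 94.8) and 53.1% (38.3 to 67.5). Without thinning the biopsies had 46% and 60%. For Csf3 the shares were 34.9% (27.3 to 43.1) and 40.8% (27 to 55.8), and for Lif 17.4% (11.7 to 24.5) and 32.7% (19.9 to 47.5), with overlapping intervals for these genes. The intervals did not overlap for Il27 and Ebi3; the difference in share was not tested across batches. Biopsies without an Ebi3 read had a median of 1822.5 genes, against 4184 in those with one.

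IL-27 needs both of its subunits. A read of both Il27 and Ebi3 was present in 87.2% of whole RAW_LPS cells, which is 97.7% of the cells with Il27 and 89.7% of those with Ebi3. In Live-seq both were in 19 of 50 biopsies, or 82.6% and 63.3% of the biopsies with Il27 and with Ebi3. The product of the separate shares is 129.4 whole cells, beside 130 with both, and 13.8 biopsies, beside 19. Across cells, the log2 levels of the 2 genes had a Pearson r of 0.437 in batch 9_1 (46 cells, Spearman rho 0.649) and 0.429 in batch scRNA (88 cells, rho 0.469). Both values of a cell come from 1 library and share its depth. Csf3 and Lif had 0.389 in batch 9_1 and 0.004 in batch scRNA.

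**Figure D4:**
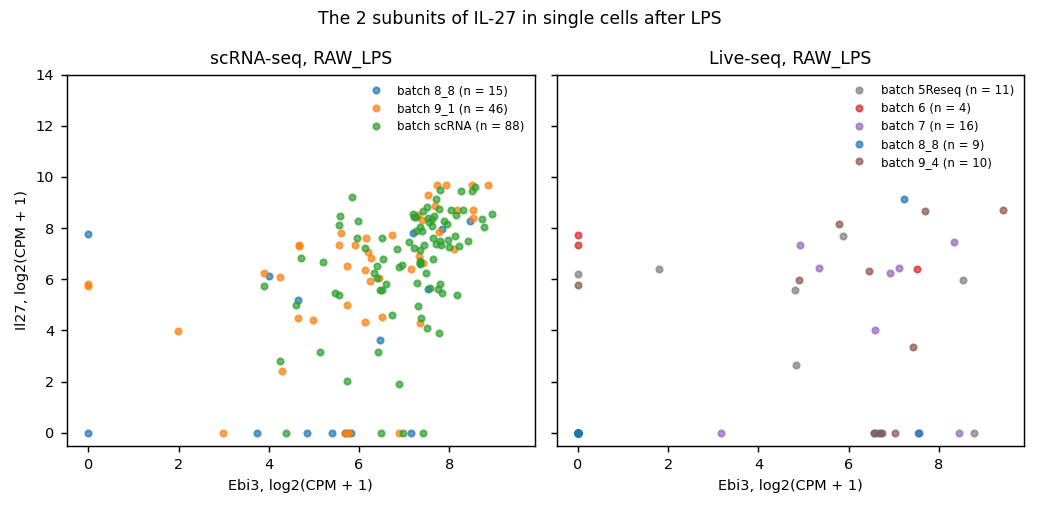
Il27 against Ebi3 in each RAW_LPS cell, as log2(CPM + 1), for the batches of scRNA-seq and for Live-seq. Both genes were read in 87.2% of whole cells and in 19 of 50 biopsies.

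The partner subunit of IL-12 and IL-35, Il12a, was not seen after LPS. It did have reads in RAW_Mock cells of both techniques, at no more than 0.2913 CPM in any scRNA-seq batch. Il12a had no read in any RAW_LPS cell of either technique, so that no cell held Il12b or Ebi3 together with it. The pair that makes IL-23 was rare: 2 whole RAW_LPS cells had reads of both Il12b and Il23a, among 3 cells with Il12b and 13 with Il23a.

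Whole RAW_LPS cells often carried several members at once. At least 3 of the 10 had a read in 64.4% of whole RAW_LPS cells, against 4 RAW_Mock cells, all of them at the LPS level of the response genes. At least 1 had a read in 99.3% of RAW_LPS and 46.5% of RAW_Mock cells. In Live-seq, 40 of 50 RAW_LPS biopsies had at least 1 member and 21 at least 3.

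Wild-type RAW264.7 cells were available in 1 Live-seq batch, with 11 RAW_LPS cells, so that genotype and batch cannot be told apart. Il10, which macrophages make to limit inflammation, had reads in 3 of these 11 cells (27.3%, 6.02 to 60.97), at 74.53 CPM, and in 0 of 39 RAW-G9 biopsies, which allows a share of up to 7.69%. A single cell held 72.3% of the counts. Csf3 was in 7 of 11 wild-type cells (63.6%, 30.8 to 89.1) and 14 of 39 RAW-G9 cells (35.9%, 21.2 to 52.8). Lif was in 6 of 11 (54.5%, 23.4 to 83.3) and 11 of 39 (28.2%, 15 to 44.9), and the exact intervals overlapped for all 3 genes (0 to 9.03 for Il10 in RAW-G9).

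A set of 3 RAW-G9 cells was sampled by Live-seq before and after LPS, with the order given in the labels. None of the 10 members had a read in any of the 3 first samples. These were shallower, with 373333, 275355 and 122643 counts, against 466821, 707834 and 729802 in the same cells after LPS. After LPS, 1 cell of batch 9_4 had 82 Csf3 and 25 Il27 counts, 1 of batch 7 had 66 Ebi3 and 14 Il23a counts, and 1 of batch 7 had 71 Ebi3 counts and reads of Csf3. Each cell had reads of 2 members, and no member was seen in all 3.

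Untreated adipose cells held Il6, Lif and Tslp. Il6 in whole ASPC_Pre cells was at 7.052 CPM in batch 8_8, where 3 of 16 cells had a read, and at 17.43 CPM in batch 9_1, where 28 of 44 had one. In IBA cells it was at 0, 6.548 and 2.048 CPM in batches 8_8, 9_1 and scRNA, with a read in 0 of 15, 5 of 45 and 14 of 93 cells. In Live-seq, Il6 was at 9.727 and 18.3 CPM in ASPC_Pre (19 of 61 biopsies, 31.1%, 19.9 to 44.3) and in 1 of 44 IBA biopsies. In both techniques, batch 8_8 was the lower of the ASPC_Pre batches, and 1 cell there held 82.8% (scRNA-seq) and 97.4% (Live-seq) of its Il6 counts.

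Lif was at 5.107 and 20.14 CPM in whole ASPC_Pre cells, with a read in 27 of 60 (45%, 32.1 to 58.4), and at 7.922, 0.6993 and 0.7757 CPM in IBA cells, with a read in 7 cells. In Live-seq ASPC_Pre it was at 101.8 and 5.47 CPM, but 1 biopsy of batch 8_8 held 90.7% of the counts, and without it that batch was at 9.87 CPM. Tslp was at 1.216 and 25.73 CPM in ASPC_Pre, with a read in 24 of 60 cells (40.0%, 27.6 to 53.5). A single cell of batch 9_1 held 79.1% of its counts, and without it that batch was at 5.571 CPM. In IBA cells Tslp was at 0, 4.736 and 8.036 CPM, with a read in 43 cells (28.1%, 21.1 to 35.9), and in Live-seq in 1 of 44 IBA biopsies.

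Few of these cells had reads of several macrophage markers. Of the whole cells, 2 IBA, 2 of 60 ASPC_Pre and 1 of 35 ASPC_Post cells had reads of at least 2 of Ptprc, Csf1r and Tyrobp. They held no Il6 or Lif counts and 0.490% of the Tslp counts in IBA, and 2.43% of the Il6, 1.76% of the Lif and no Tslp counts in ASPC_Pre. Of the 11 macrophage markers, 10 had reads in ASPC_Pre, where Adgre1 was at 0, 6 in ASPC_Post and all 11 in IBA. Of the lymphocyte and mast cell markers in the table, Cd3e, Ms4a2 and Cd79a, none had a read in whole ASPCs, and Cd79a had reads in IBA cells. The part of these cells in the cytokine levels was not tested.

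Between IBA and ASPC_Pre, edgeR called 1514 of 13562 genes (11.2%), of which 33.1% were higher in IBA (41.5% with DESeq2). None of the 6 members tested was among them, while Il6 and Tslp had an unadjusted p under 0.05 (0.0164 and 0.0200). Il6 had a log2 fold change of -3.90 ± 1.33 (edgeR, adjusted p = 0.0867), Tslp of -2.80 ± 1.00 (0.0967) and Lif of -2.54 ± 2.21 (0.4801), IBA against ASPC_Pre. Ebi3, Csf3 and Il27 had at most 1 count in either group and give no usable fold. DESeq2 called 15.1% of the genes and 1 of the 6 members, Csf3, which rests on such a count. The newer edgeR fit called 19.4% of the genes, with Il6 (adjusted p = 0.0279) and Tslp (0.0119) among them, both lower in IBA. Without the single ASPC_Pre cell named above, Tslp in batch 9_1 was at 5.571 CPM in ASPC_Pre, beside 4.736 CPM in IBA, and the test was not repeated without it.

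When RAW_LPS cells were set against the mean of IBA and ASPC_Pre cells, edgeR called 5307 of 13562 genes (39.1%), among them Ebi3, Il27 and Csf3, higher in RAW_LPS, and Il6. Ebi3 (edgeR, adjusted p = 5.36e-05), Il27 (5.10e-04) and Csf3 (0.0034) had passed the filter through RAW cells alone, where they are high. Without the filter they were called too (edgeR, adjusted p = 3.15e-08, 3.02e-06 and 1.19e-04). Ebi3 had no count in the adipose cells, and its pooled level was at least 4565.3-fold higher in RAW_LPS. Il27 and Csf3 had 1 count each in those cells, with a ratio of 18437.9 (counting interval 3308.6 to 728319.3) for Il27. The calls of these 3 held without any single batch.

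Il6 was lower in RAW_LPS than in the adipose cells, by a log2 fold change of -3.81 ± 1.20 (edgeR, adjusted p = 0.0277). Il6 had passed the filter through ASPC_Pre alone, and without the filter its adjusted p was 0.0240 (edgeR). Pooled, it was at 0.9724 CPM in RAW_LPS and at 7.48 CPM in the adipose cells, a ratio of 0.13 (0.0984 to 0.169). That call was lost without batch 8_8 (edgeR, adjusted p = 0.0635), without 9_1 (0.0742), without scRNA (0.1031) and without the batch in the model (0.0841). Lif (log2 fold change -0.32 ± 1.67, adjusted p = 0.9037) and Tslp (-1.19 ± 0.84, 0.2803) were not called.

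ASPC_Post and ASPC_Pre cells shared 1 batch in each technique, so that their difference has no replicate check and no test. In scRNA-seq batch 9_1, Il6 was at 17.43 CPM before and 0.5227 CPM after the adipogenic cocktail, a ratio of 33.35 (counting interval 17.4 to 73.43). Its reads were in 28 of 44 cells before and 3 of 35 after. Lif had a ratio of 6.085 (4.618 to 8.153), with 24 of 44 and 7 of 35 cells, and Tslp one of 16.41 (11.17 to 25.1), with 21 of 44 and 3 of 35 cells. The Tslp ratio rests largely on the ASPC_Pre cell named above: without it the level before was 5.571 CPM, against 1.568 CPM after.

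Live-seq batch 9_4 gave the same order of the states. Il6 was in 17 of 43 biopsies before and 0 of 37 after, which allows a share of up to 8.11%, and its level was at least 97.48-fold higher before. Lif was in 8 of 43 and 0 of 37 biopsies, at least 29.14-fold higher before, and Tslp in 7 of 43 and 4 of 37, with a ratio of 7.411 (3.526 to 17.96). Of the cells, 9 were sampled both before and after. Il6 was read in 3 of these 9 cells before (64, 17 and 2 counts) and in none after, Lif in 2 before and Tslp in 1 before, and none after.

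**Figure D5:**
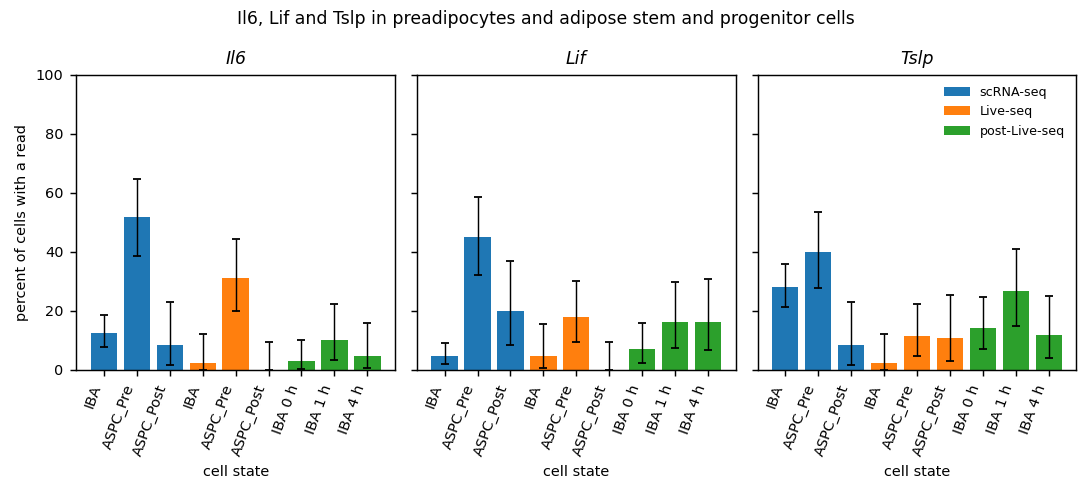
Share of cells (percent, with exact 95% intervals) with a read of Il6, Lif and Tslp in ASPC_Pre, ASPC_Post and IBA cells, for scRNA-seq and Live-seq. Further bars show whole IBA cells lysed at 0, 1 and 4 h in relation to Live-seq sampling, all from batch 8_1. In scRNA-seq, Il6 is in 51.7% of ASPC_Pre, 8.57% of ASPC_Post and 12.4% of IBA cells.

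The genes around these cytokines were taken as fixed lists. Among regulators of cytokine genes and their mRNAs, 3 of 13 tested rose with LPS in whole RAW cells and none fell, where 1.20% of all genes were called, with a list median log2 fold change of 2.12 beside -0.01 over all genes. They were Zc3h12a (log2 fold change 3.18, edgeR adjusted p = 0.0172), which encodes the RNase Regnase-1 that degrades Il6 mRNA, Nfkbiz (3.29, 0.0389), whose product IkBzeta co-activates a set of NF-kB targets, and the AP-1 family member Batf (2.43, 0.0477). Of 17 related cytokines, 9 were tested and 2 rose, beside the same 1.20%: Il15 (4.98, edgeR adjusted p = 0.0405) and Csf1 (3.99, 0.0473), the growth factor of macrophages. None of 9 receptors tested (of 13) or 10 JAK and STAT genes (of 11) was called, with medians of -0.22 and 0.81.

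Several receptors differed between the cell types; those named here were chosen after their values were seen. Against the adipose cells, RAW_LPS cells had higher Csf3r, the receptor for G-CSF, and Il10ra, and lower Il6st, Lifr and Osmr, so that 5 of 9 receptors tested were called, beside 39.1% of all genes. Osmr, the oncostatin M receptor, was at 0.0339 ± 0.0587 CPM (SD, n = 3) in RAW_LPS, 191.3 ± 116.6 (n = 3) in IBA and 183.7 ± 46.6 CPM (n = 2) in ASPC_Pre (edgeR, adjusted p = 3.88e-06). Its ligand Osm had reads in RAW cells and in no IBA, ASPC_Pre or ASPC_Post cell of either technique. Lifr was at 0 in RAW_LPS, 73.75 ± 29.47 CPM in IBA and 31.38 ± 19.97 CPM in ASPC_Pre (edgeR, adjusted p = 8.58e-05). Csf3r was at 19.1 ± 7.69 CPM in RAW_LPS, 0.01034 ± 0.0179 in IBA and 0 in ASPC_Pre (edgeR, adjusted p = 1.54e-05).

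Il6ra, the receptor subunit specific to IL-6, was at 19.06 ± 15.05 CPM in RAW_LPS, 12.83 ± 3.88 in IBA and 8.597 ± 2.97 in ASPC_Pre and was not called.

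Reads were counted without strand in HTSeq's union mode, which assigns a read over the exons of 2 genes to neither. The spans of 3 members overlap another gene of the annotation, so that reads from shared exons would be missing from both. Whether their exons overlap was not examined. Il27 overlaps Apobr (7023 counts in all cells), Ebi3 the antisense gene Gm16712 (1772) and Tslp the non-coding gene 4930455D15Rik (12).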

How the data were processed

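Single-cell libraries were made with Smart-seq2 from whole cells or with its Live-seq modification from cytoplasmic biopsies. The authors aligned 75 bp reads to mm10 with STAR 2.6.1c and deposited raw counts per gene from HTSeq, without strand or molecular identifiers. The submitters' processing notes also name bcl2fastq 2.19.1. All 30452 features were read, of which GENCODE vM21 named 30322. As in the study, the 20 genes of its negative-control list and 92 genes for ribosomal proteins were set aside, a median of 23.91% to 24.69% of a cell's counts by technique, and CPM refers to the remaining 30340 features. Total counts per cell ran from 38451 to 2671609, which limits how low a transcript can be seen, and intervals cover counting error only.

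Cells are not replicates, so counts were summed per technique, state and batch with at least 3 cells. Sums were tested with edgeR 4.0.16 (R 4.3.3; legacy quasi-likelihood fit, TMM factors, prior count 0.125) with state and batch in the model. To enter a test, a gene had to reach 2 counts in 15% or more of the whole cells belonging to some state, and then pass edgeR's filterByExpr (minimum count 2, minimum proportion 0.05). Calls needed a Benjamini-Hochberg adjusted p under 0.05 and a log2 fold change beyond 1; tests were two-sided. SE is the log2 fold change divided by the square root of F. The batch pairs the groups by label: deviations of mock and LPS sums of a batch correlated at 0.33 to 0.58 in scRNA-seq and 0.03 to 0.16 in Live-seq. Shares have exact Clopper-Pearson 95% intervals, a count of 0 allows up to 3 counts, and thinning drew 50000 counts per cell. On simulated counts for LPS against mock of whole cells (13562 genes), the test recovered 60 of 100 genes changed by log2 3 and 0 of 100 changed by 1.5. For Live-seq (13462 genes) it recovered 83 and 11 of 100. The simulation gave every gene the same dispersion, with no batch effect and no other difference between states. It therefore does not give the power on the real sums. In the real Live-seq fit the members' SEs were 1.43 to 3.22, and 0 of 13462 genes were called.

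Alternatives were DESeq2 1.42.0, RLE factors, the newer edgeR fit, no filter, the left-out genes kept, no batch term, each batch left out, and sums of fewer cells kept. Leaving out mock cells at the LPS level is an alternative chosen once the values were known. The 10 genes were named by their place in the cytokine families, with pathway genes from fixed lists, and for each member the 2 genes with the most similar levels. These genes and lists were chosen with earlier results of these data known. Of a list of partner subunits, only Il12a is reported here.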

Additional observations from a re-analysis of the deposited data

Results flagged for a closer look

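In groups of 4 or 5 Live-seq batches, the highest value stood apart from the others by Dixon's criterion in 8 of 20 groups examined. The usual rate by chance, about 1 in 20, does not apply here. The criterion is met whenever a single batch has reads. It cannot be met where all batches are at 0, as for Il6, Il10, Il12b, Il23a and Tslp among mock biopsies. Among mock biopsies, batch 8_8 was the only batch with reads of Csf3 (8.74 CPM), Il27 (2.489 CPM), Lif (5.255 CPM) and Osm (18.2 CPM). Mock biopsies at the LPS level held all of these Csf3 and Il27 counts and none of the Lif and Osm counts. Batch 8_8 also held 63 mock biopsies, against 8 to 20 in the other batches with at least 3.

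Among RAW_LPS biopsies, Il10 was at 74.53 CPM in the wild-type batch 5Reseq and at 0 in the others. Il12b was at 13.28 CPM in batch 8_8, from 1 cell, with 0.4026 CPM in the next batch. Il6 was at 12.58 CPM in batch 7, with 2.311 CPM in the next, and Il23a was at 1.409 CPM in batch 7 alone.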

How the results depend on the processing

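The members' log2 fold changes were counted under all alternatives, except those of Ebi3, Csf3 and Il27 in IBA against ASPC_Pre. Of those counted, 11 gained a call, 12 lost one and 10 changed sign, none of these called. The others kept their direction and side of the threshold. Among the excepted ones, Csf3 was at -1.545 with edgeR, not called, and was called as higher in IBA with DESeq2. For LPS against mock in whole cells, the 1.20% of genes called became 5.26% with DESeq2, 3.03% with the newer edgeR fit, 0.977% of 28251 genes without the filter, 2.14% without the mock cells at the LPS level and 0 to 0.135% with a batch left out (0 without 8_8, 0.135 without 9_1, 0.0295 without scRNA). Members called, 2 of 6, became 4 without those mock cells and 0 with any batch left out. Without the replicate block, 0.258% of genes and 0 members were called there, and 7% of genes for IBA against ASPC_Pre. That last comparison, with 11.2% and 0 members, gave 19.4% and 2 members with the newer fit and 15.1% and 1 member with DESeq2. With a batch left out it gave 0.322% to 11.3% (0.322 without 9_1, 3.24 without scRNA). RAW_LPS against adipose cells called 7 of 10 members without the filter, beside 20.3% of 28251 genes, adding Il12b, Il23a and Osm. For Il12b, 1 whole RAW_LPS cell held 98.7% of the counts. For LPS against mock in Live-seq, 0% became 4.76% and 4 members with DESeq2, and 1 gene without the filter (0.00414%) or without the mock cells at the LPS level (0.00743%). The difference between techniques, 0%, became 2.91% with DESeq2 and 0 to 0.221% with a batch left out (0.0811 without Live-seq batch 7, 0.103 without 8_8, 0.221 without 9_4).

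Signs changed in the difference between techniques, where leaving out a batch gave -2.87 to 9.27 for Csf3, -2.10 to 5.49 for Il27, -1.91 to 10.46 for Lif and -0.52 to 2.65 for Tslp, lowest without scRNA-seq batch scRNA and highest without Live-seq batch 8_8. Without the mock cells at the LPS level it was -3.13 for Lif and -0.57 for Tslp. For Lif in RAW_LPS against adipose cells the log2 fold change was 0.77 with the newer fit, 0.75 without the replicate block, 0.61 without those mock cells and -0.79 to 1.41 with a batch left out (-0.79 without 9_1, 1.41 without 8_8). The causes were not tested. Of the shares of cells under the alternatives, 66 fell outside the exact interval of the main share and the others did not. Depth limits how low a transcript can be seen; Il6, Il10, Il12b and Il23a had reads in few RAW cells, and the part of depth in this was not tested.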

Other observations

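Whole IBA cells lysed at 0, 1 and 4 h in relation to Live-seq sampling were all from batch 8_1, so that these times have no replicate check and no test. Lif was at 0.4509, 2.537 and 5.597 CPM, with a read in 5 of 70, 8 of 49 and 7 of 43 cells. Tslp was at 2.131, 6.366 and 1.761 CPM, with a read in 10, 13 and 5 cells. Il6 had reads in 2, 5 and 2 cells and Csf3 in 1, 1 and 3 cells, and Ebi3, Il27, Il10 and Osm had none. Il23a had 47 counts in 1 cell at 0 h, and Il12b had 5 counts in 1 cell at 0 h and 1 count in 1 cell at 1 h.

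Another RAW cell of Live-seq batch 9_4 was sampled without and with LPS, with both samples labelled as the first in order. It had 33 Ebi3 counts in the mock and 32 in the LPS sample, and 0 and 19 Lif counts.

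Over the 12 sums of whole cells, 10700 genes were ranked by the Pearson correlation of their log2 CPM with each member, which share libraries and state and carry no test. Il27 was most like Lcn2 (0.986) and Cxcl2 (0.984), Csf3 like Cxcl2 (0.993) and Il1a (0.989), and Ebi3 like C5ar1 and the mCherry reporter (both 0.985). Il6 was most like Pls3 (0.922) and Dkk2 (0.908), and Tslp like Capza2 (0.849) and Tgm2 (0.836). The highest value for Lif was 0.783 (Itch).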
